A study of Mus musculus with 8 samples.

Results

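The genes described here encode the enzymes that conjugate foreign and endogenous molecules and hydrolyse their esters in the mouse distal colon: the UDP-glucuronosyltransferases (UGTs, *Ugt1* to *Ugt3* genes), the cytosolic, mitochondrial and peroxisomal glutathione S-transferases (GSTs, *Gsta*, *Gstk*, *Gstm*, *Gsto*, *Gstp*, *Gstt* and *Gstz* genes), the sulfotransferases (SULTs) and the carboxylesterases (CESs). They were chosen by a rule on symbols, with earlier results of these data known. Of the 15859 genes in the deposited counts, 50 matched: 10 UGTs, 19 GSTs, 8 SULTs and 13 CESs. Among the CESs, *Ces2d-ps* is annotated as a pseudogene. No *Ugt3* gene was among the 50. RNA was sequenced from 8 male mice on a mixed background (BALB/c crossed with 129SvEV). They form 4 groups of 2, namely untreated WT, untreated *Hsf1* null, treated WT and treated *Hsf1* null mice. Untreated mice are called day 0 and AOM–DSS-treated mice day 15, after the sample names. Treated mice received 10 mg/kg of the carcinogen azoxymethane (AOM) by intraperitoneal injection at 8 weeks of age and then drank water with 1.5% dextran sulfate sodium (DSS), an irritant that damages the gut lining, for 5 days from day 7. Untreated mice were age matched, received neither agent, and, like the treated mice, are given as 10 weeks old. The *Hsf1* null line is a germline knockout of the transcription factor that drives the heat shock response, so that every cell type of the colon lacks the factor. Distal colon was sequenced whole, and fewer cells of a type and less RNA per cell therefore cannot be told apart.

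The 4 enzyme classes work on the same kinds of substrate by different chemistry. UGTs sit in the endoplasmic reticulum and transfer glucuronic acid from UDP-glucuronate to bilirubin, steroids, bile acids, dietary phenols and drugs. SULTs are cytosolic and transfer sulfate from the donor PAPS to phenols, catecholamines and steroids, while GSTs couple glutathione to electrophiles, among them products of lipid peroxidation. Carboxylesterases cleave esters and amides, including prodrugs and acylglycerols. In the intestine many of these enzymes are most abundant in differentiated epithelial cells, where absorbed compounds are first met.

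Total counts per mouse lay between 2553348 and 12440257, with replicate 2 of both day 0 groups sequenced least. Values are given as counts per 1000000 (CPM) with library sizes adjusted by the TMM method. *Hsf1* itself was at 40.5 and 36.5 CPM in untreated WT mice and 13.95 and 11.9 CPM in untreated null mice. After treatment WT mice had 50.4 and 45.9 CPM and null mice 13.5 and 9.09 CPM. Every null mouse was thus below every WT mouse. The 9 hindgut *Hox* genes checked for the colon label were all tested and summed to at least 167 CPM in every mouse. Of 6 liver genes, checked because many of these enzymes are best known in liver, 4 were in the table and summed to between 15.3 and 169.97 CPM. In 7 of 8 mice most of this was *Ttr*, the transthyretin gene, and *Alb*, the defining gene of liver, was at 7.54 CPM or less and was called lower in both genotypes over time.

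Of the 50 genes, 43 had a mean normalized count above 5 and were tested with the 14371 genes of the whole table. The 7 others were *Ces1b*, *Ces2d-ps*, *Sult5a1*, *Ugt1a2*, *Ugt1a5*, *Ugt2b1* and *Ugt2b5*, which had at most 17 counts in any mouse. Levels of different genes were compared per kilobase of annotated exon. By the mean over the 8 mice, *Gstm1* (276 CPM per kilobase) and *Gsto1* (261) led all 50 genes, followed by *Gstp1* (185). The order differed by group, and in treated WT mice *Gstm1* (113 CPM per kilobase) was behind *Gsto1* (284), *Gstp1* (190.4) and *Gsta4* (138). *Ugt2b34* led the UGTs in every group (56.4 CPM per kilobase over all mice), and *Ugt1a7c* the *Ugt1a* genes (5.26). *Sult1a1* led the SULTs over all mice (125 CPM per kilobase), but in treated WT mice it was at 13.5 against 27.8 for *Sult1b1*. *Ces2a* led the CESs over all mice (28.3 CPM per kilobase) and by group only in treated null mice (42.05). *Ces2c* led them in untreated WT (34.9) and untreated null mice (38.8), and *Ces2e* in treated WT mice (11.6). Among the *Ces1* genes *Ces1d* was highest over all mice (3.38 CPM per kilobase), but *Ces1g* was highest in treated WT (3.17) and *Ces1e* in treated null mice (2.26). *Ugt1a1*, which conjugates bilirubin, was at 3.62 and 1.98 CPM in WT mice at day 0.

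**Figure D1:**
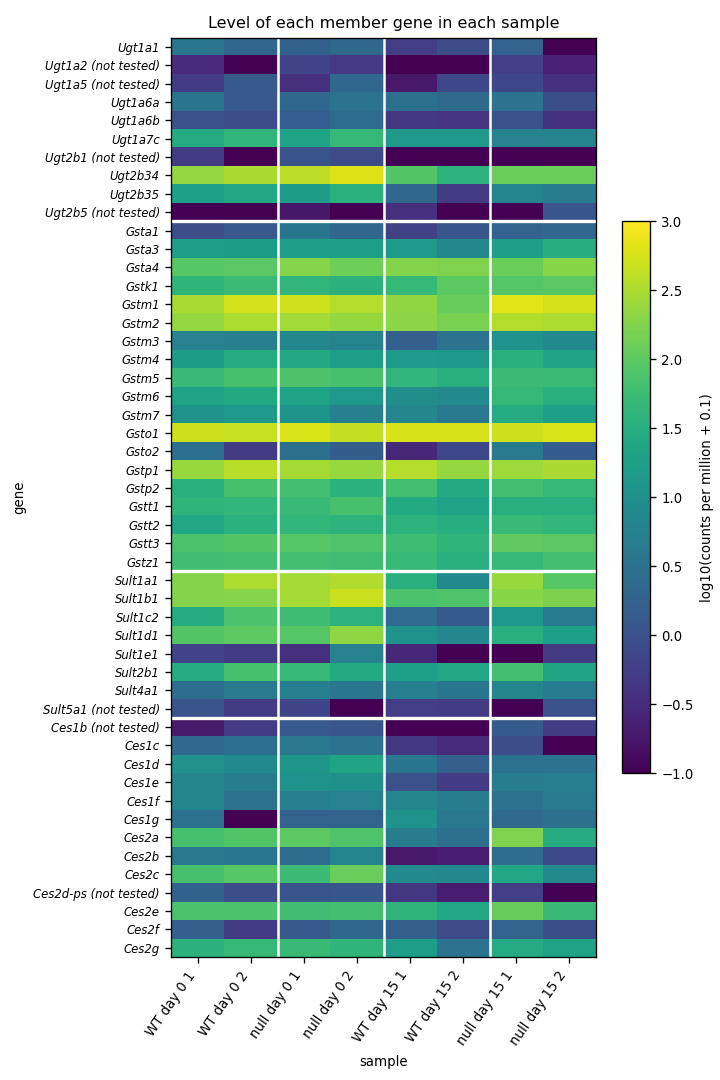
Level of all 50 genes in each of the 8 mice, as log10 of CPM plus 0.1 (colour), with genes in rows by enzyme class and mice in columns by group. Most GST rows keep a similar colour in all mice, while *Ces2a*, *Sult1c2*, *Sult1d1* and *Ugt2b35* are darkest in the 2 treated WT mice, where *Ces2a* was at 4.69 and 2.85 CPM.

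Summed over each class, GST mRNA was the most even of the 4. The 19 GST genes together were at 1750.3 and 2281 CPM in WT mice before and 1902 and 1565 CPM after treatment. In null mice they were at 2382 and 1824 CPM before and 2491 and 2521 CPM after treatment. The day 15 mean was 86.01% of the day 0 mean in WT and 119% in null mice. The 10 UGT genes were at 293 and 389.6 CPM before and 106 and 57.5 CPM after treatment in WT mice, and null mice went from 444 and 709 CPM to 142 and 141 CPM. That is 23.9% and 24.5% of the respective day 0 means, with no overlap between days in either genotype. The 8 SULT genes stood at 21.2% of day 0 in WT mice, from 508 and 763 CPM to 145 and 124 CPM. In null mice they stood at 45.3%, from 781 and 1102 CPM to 553 and 300.3 CPM. The 13 CES genes stood at 23.7% in WT mice, from 279.7 and 319 CPM to 93.8 and 48.03 CPM. In null mice they stood at 73.1%, but the 2 treated mice differed widely, with 360.4 and 124 CPM against 303 and 359.5 CPM at day 0. The summed UGT, SULT and CES levels were lower in both treated WT mice than in both treated null mice, and so was the GST sum. These sums were not tested.

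**Figure D2:**
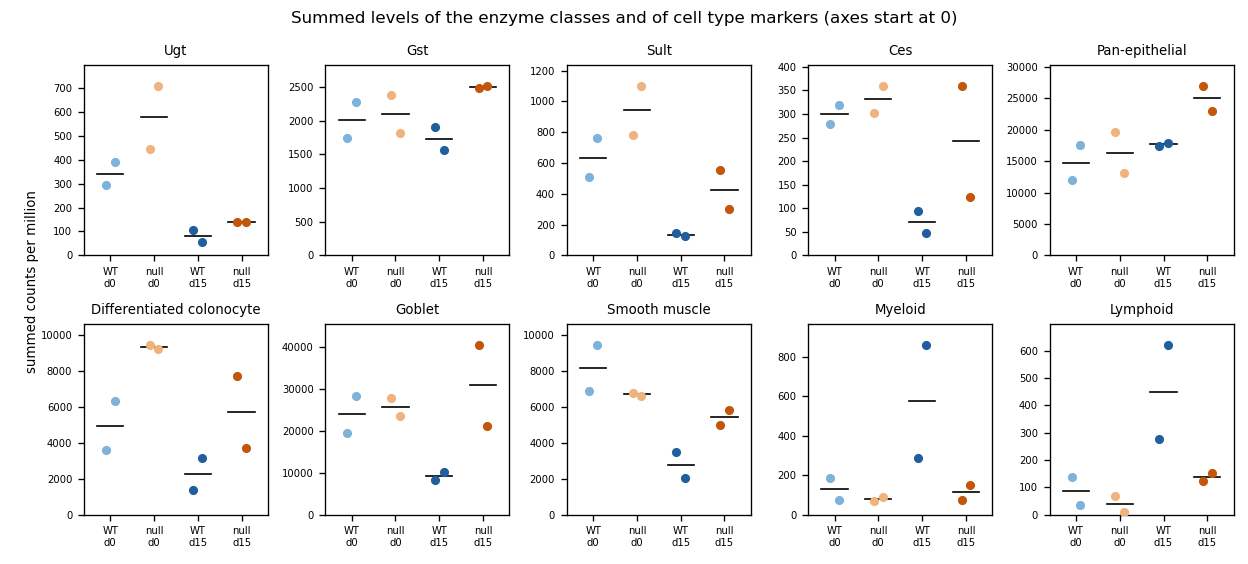
Summed CPM of the 4 enzyme classes and of 6 lists of cell type markers in each mouse, with points for mice, black lines for the means of 2 mice and axes from 0. The UGT sum was at 23.9% of day 0 in WT and 24.5% in null mice, and the goblet, colonocyte and smooth muscle marker sums were also lowest in treated WT mice, where the myeloid and lymphoid sums were highest.

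The counts of genes past the test differed between the 4 comparisons of groups. A gene was called where its adjusted p was under 0.05 in edgeR's quasi-likelihood test over all 14371 genes and its log2 fold change exceeded 1 in size. In WT mice 11 of the 43 tested genes fell from day 0 to day 15 and 0 rose, where 4.27% of all tested genes fell and 3.47% rose. At an unadjusted p under 0.05, 24 of the 43 were lower and 1 was higher (13.8% of all tested genes in each direction). DESeq2 called 16 lower and 0 higher (6.02% and 6.07% of all). In null mice 8 fell and 2 rose (6.48% and 5.30% of all tested genes), and 6 genes fell in both genotypes (1.66% of all). Between the genotypes at day 15, 7 were higher in null mice and 0 were lower, against 1.91% and 1.25% of all tested genes. At an unadjusted p under 0.05, 19 were higher and 1 was lower (11.6% of all tested genes in each direction). DESeq2 called 14 higher and 0 lower (4.42% and 3.76% of all). The median log2 difference of the 43 genes between null and WT mice at day 15 was 1.00, beside -0.04 over all tested genes, and 36 of the 43 were positive. In 24 of them both null mice were above both WT mice and in 3 both were below, where 26.2% and 28.6% of all tested genes separated in these directions. Over time the 2 days separated downwards in 30 and upwards in 3 of the 43 genes in WT mice, beside 31.5% and 31.0% of all tested genes. In null mice they separated downwards in 17 and upwards in 8, beside 30.3% and 31.0%. In 6 of the 43 they separated downwards in WT and upwards in null mice, beside 2.04% of all tested genes. At day 0, edgeR called 0 of the 43 between the genotypes (0% of all tested genes), 4 had an unadjusted p under 0.05, all higher in null mice (2.36% of all), and DESeq2 called 0 (0.118% of all). Both null mice were above both WT mice in 11 genes and below in 1, beside 18.7% and 18.4% of all tested genes. *Hsf1* itself was not called at day 0 either (-1.57 ± 0.30, edgeR adjusted p = 0.775). An absent call at day 0 therefore does not show that the genotypes were equal there. Whether the change from day 0 to day 15 itself differed between the genotypes was tested as an interaction. By edgeR 0 of the 43 were called (0.00696% of all tested genes), 13 had an unadjusted p under 0.05 (8.61% of all), and DESeq2 called 3, *Ces2a*, *Gstm6* and *Gstm7* (0.807% of all). The null and WT comparisons over time and the comparison at day 15 share mice, so their values are set side by side and are not independent.

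The calls between the genotypes at day 15 depended on which libraries were in the fit. Without replicate 2 of WT day 15, or without either of the null day 0 mice, which enter only through the shared estimate of spread, 0 of the 43 genes were called, and without replicate 1 of null day 15, 1 was. DESeq2 called 14 of them and edgeR fitted to the 4 day 15 mice alone called 0. For the change in WT mice, leaving out replicate 2 of WT day 15 left 1 of 11 calls and leaving out replicate 2 or 1 of WT day 0 left 6 or 7. For the change in null mice, 0 of 10 calls were left without replicate 2 of null day 0 or replicate 2 of null day 15, and 3 without replicate 1 of null day 15. Shares of all tested genes called with 1 library left out are not given here. Losses among the 43 genes thus cannot be set against those of the whole table. None of the called log2 fold changes turned sign under any of these settings, but leaving out 1 library moved the fold by over 1.5 times in 13 of the 28 calls. Apart from *Ces2a*, *Sult1a1* and *Ugt2b35*, whose values stand below, the WT changes moved to -2.82 for *Ugt2b34* and -3.73 for *Ces1e* without replicate 1 of WT day 15, and to -4.00 for *Sult1c2* without replicate 2 of WT day 0. The changes in null mice moved to -1.81 for *Ces2c*, -1.77 for *Sult1d1*, -1.74 for *Ugt1a7c* and -1.52 for *Ugt2b35* without replicate 2 of null day 0. They moved to -3.55 for *Ces2c* and -3.44 for *Sult1c2* without replicate 1 of null day 15, and to -1.87 and -1.82 without replicate 2 of that group. At day 15, *Ces1e* moved to 3.50 without replicate 1 of WT day 15.

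Calls also differed with the scale. When libraries were scaled to 15 pan-epithelial genes instead of TMM, the median of all genes moved by -0.48 (log2) for the genotypes at day 15, by -0.54 for null mice over time and by -0.08 for WT mice over time. On that scale 11 of the 43 genes fell and 0 rose in WT mice (2.87% and 1.39% of all tested genes), and 10 fell and 0 rose in null mice (13.0% and 0.939%). At day 15, 4 were higher and 0 lower in null mice (0.612% and 1.64%), namely *Ces2a*, *Gstm1*, *Gstm6* and *Sult1a1*. Of the 11 falls in WT mice on the TMM scale, 9 were made again, with *Gstm1* (-1.33) and *Ces2g* (-2.15) added. Of the 10 calls in null mice, 8 were made again, with falls of *Gstt1* (-1.43) and *Ces1c* (-3.78) added. The number of positive differences at day 15 went from 36 to 27 of 43 and the median from 1.00 to 0.48.

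**Figure D3:**
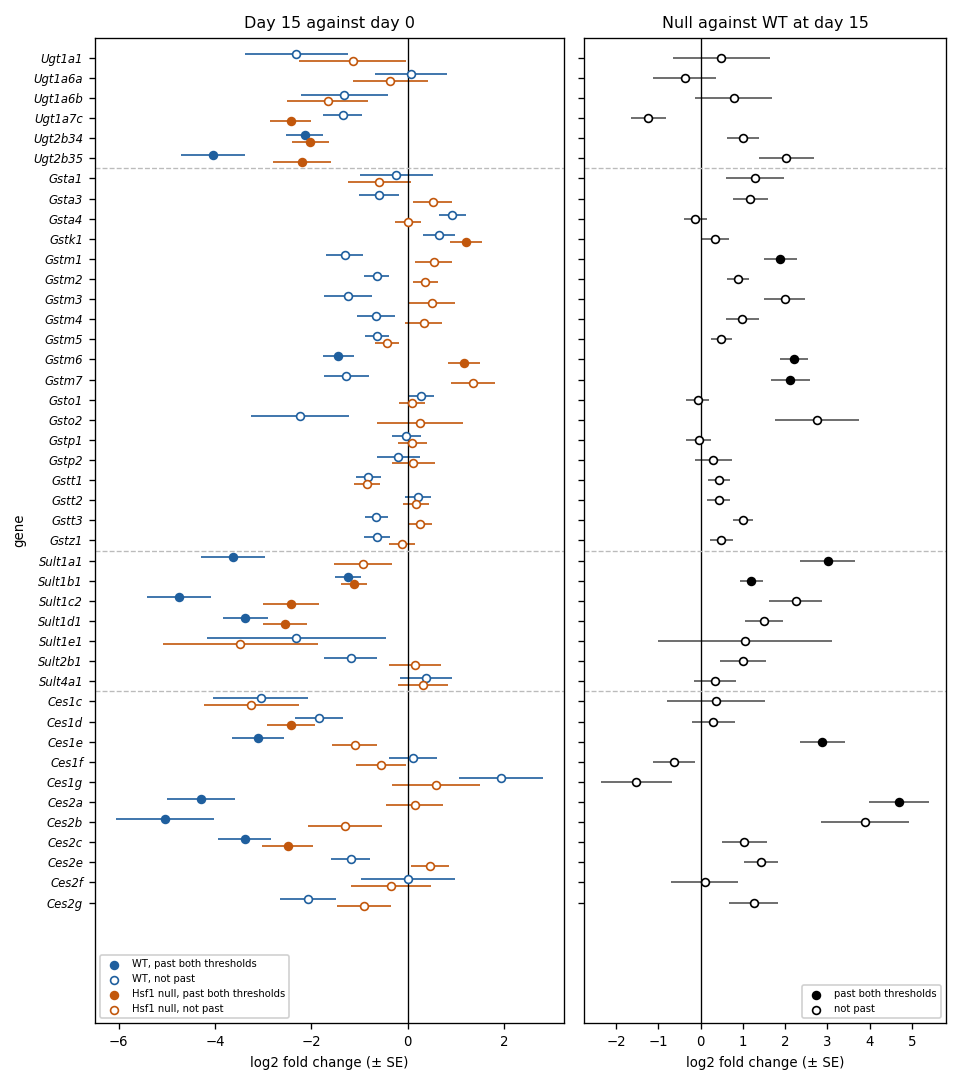
Log2 fold changes (± SE) of the 43 tested genes on the TMM scale, from day 0 to day 15 in WT (blue) and null mice (orange) on the left and of null against WT mice at day 15 on the right, with filled points for genes past both thresholds and dashed lines between UGTs, GSTs, SULTs and CESs. In WT mice 11 genes fell, and 6 of 7 *Gstm* genes are positive in null mice on this scale, of which *Gstm2*, *Gstm3* and *Gstm4* turn negative on the pan-epithelial scale.

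Among the UGTs the 2 abundant *Ugt2b* genes fell in both genotypes. *Ugt2b34*, the most abundant UGT of this tissue, was at 236 and 315 CPM in untreated WT mice and 401 and 616 CPM in untreated null mice. At day 15 the WT mice stood at 85.7 and 39.1 CPM and the null mice at 123 and 127 CPM. Every treated mouse was below every untreated mouse, and the log2 fold change was -2.14 ± 0.38 (SE, adjusted p = 0.0145) in WT and -2.02 ± 0.38 (adjusted p = 0.0169) in null mice, or 4.41-fold and 4.06-fold lower. *Ugt2b35*, from the same cluster on chromosome 5, was at 18.9 and 26.2 CPM in untreated WT mice and 15.8 and 35.9 CPM in untreated null mice. The levels after AOM–DSS were 2.17 and 0.422 CPM for WT and 6.05 and 4.94 CPM for null animals. It fell by 4.05 (SE 0.67, adjusted p = 0.0111) in WT and by 2.20 (SE 0.60, adjusted p = 0.042) on the log2 scale in null mice, and the treated null mice were above the treated WT mice without the difference being called (2.03, adjusted p = 0.11). The change in WT mice was -5.67 without replicate 1 and -3.35 without replicate 2 of WT day 15. The null call was lost with the replicate number as a block and in 5 of 8 fits with 1 library left out.

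The *Ugt1a* genes share their last exons on chromosome 1 and differ in the first, so that a read from the shared exons does not tell them apart. Between 52.1% and 79.8% of the 50-base stretches of each *Ugt1a* transcript set also occur in another gene, and how the counting divided such reads is not given, which makes every single *Ugt1a* value uncertain. *Ugt1a7c* was the only one above 5 CPM, at 28.9 and 43.2 CPM in untreated WT mice and 19.9 and 45.6 CPM in untreated null mice. In treated mice the values were 13.997 and 14.04 CPM (WT) and 5.74 and 6.15 CPM (null). It fell in null mice by 2.43 (SE 0.43, adjusted p = 0.0153). In WT mice the log2 fold change was -1.35 ± 0.40 (adjusted p = 0.0669), and both treated WT mice were at nearly the same level. This was the one UGT in which both treated null mice lay below both treated WT mice (-1.24, adjusted p = 0.121). *Ugt1a1*, *Ugt1a6a* and *Ugt1a6b* were at or below 3.62 CPM in every mouse and none was called.

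Among the SULTs the falls were in *Sult1* genes. Of the 7 SULTs tested, 4 fell in WT mice and 3 of these also in null mice, beside 4.27% and 1.66% of all tested genes. *Sult1a1*, which sulfates simple phenols, was at 181 and 327 CPM in untreated WT mice and 288 and 339 CPM in untreated null mice. With treatment, WT mice showed 32.8 and 7.92 CPM and null mice 242 and 89.7 CPM. It fell by 3.63 (SE 0.67, adjusted p = 0.0155) in WT mice, whereas in null mice the log2 fold change was -0.92 ± 0.60 (adjusted p = 0.317). Both treated null mice were above both treated WT mice, by 3.02 (SE 0.65, adjusted p = 0.0413), an 8.09-fold difference that was also called with pan-epithelial scaling (2.51). That call was kept in 4 of 8 fits with 1 library left out, and the log2 difference was 2.14 without replicate 1 of null day 15, 4.38 without replicate 1 of WT day 15 and 2.34 without replicate 2 of WT day 15. The fall in WT mice was -5.00 and -2.95 without these 2 WT mice in turn. The 2 treated mice were far apart within each genotype, and the interaction was 2.71 ± 0.87 (adjusted p = 0.453).

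*Sult1c2* had the largest fold fall of the SULTs in WT mice. The gene was at 30.2 and 73.4 CPM in untreated WT mice and 57.5 and 38.1 CPM in untreated null mice. On day 15 it measured 2.43 and 1.27 CPM for WT and 13.6 and 4.41 CPM for null animals. It fell by 4.75 (SE 0.66, adjusted p = 0.0068) in WT and by 2.42 (SE 0.58, adjusted p = 0.0293) in null mice. In WT mice its call held in all 8 fits with 1 library left out and under the 8 other settings, alone among the 28 calls made for these genes. *Sult1d1*, an enzyme for catecholamines, was at 86.3 and 102 CPM in untreated WT mice and 87.6 and 214 CPM in untreated null mice. Treated WT mice were at 10.95 and 7.07 CPM and treated null mice at 33.3 and 18.04 CPM. It fell by 3.37 (SE 0.47, adjusted p = 0.00718) in WT and 2.55 (SE 0.45, adjusted p = 0.0153) in null mice. The treated mice were below the untreated mice in both genes and both genotypes, and the treated null mice above the treated WT mice, with differences of 2.25 (adjusted p = 0.0776) and 1.50 (adjusted p = 0.0934) that were not called.

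*Sult1b1*, which acts on thyroid hormones and small phenols and lies beside *Sult1d1* on chromosome 5, fell by a similar ratio in both genotypes from different starting levels. The gene was at 178 and 186 CPM in untreated WT mice and 294 and 473 CPM in untreated null mice. After treatment WT mice had 74.7 and 79.8 CPM and null mice 193 and 161 CPM. Its log2 fold change was -1.24 ± 0.27 (adjusted p = 0.0276) in WT and -1.11 ± 0.27 (adjusted p = 0.0305) in null mice. Null mice were above WT mice on both days, by 1.07 ± 0.27 at day 0 (adjusted p = 0.775, not called) and 1.20 ± 0.27 at day 15 (adjusted p = 0.047). The call between genotypes was kept in 1 of 8 fits with 1 library left out and was lost under the replicate block and with pan-epithelial scaling (0.70). The fall in WT mice was not called with pan-epithelial scaling (-1.30) or in any fit without a WT mouse. The fall in null mice went to -0.73 without replicate 2 of null day 0. *Sult2b1*, the cholesterol sulfotransferase, was at 28.6 and 69.4 CPM in untreated WT mice and 47.9 and 28.01 CPM in untreated null mice. At day 15 the WT mice stood at 18.5 and 23.9 CPM and the null mice at 64.2 and 21.4 CPM. The 2 mice differed widely in 3 of the 4 groups, and the gene was not called. *Sult4a1*, whose locus on chromosome 15 lies on the chromosome that carries *Hsf1*, was between 2.64 and 6.67 CPM in all mice and not called. *Sult1e1*, the estrogen sulfotransferase, was at or under 0.588 CPM in 7 of 8 mice and at 5.75 CPM in replicate 2 of null day 0.

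The carboxylesterases lie in 2 clusters on chromosome 8 (GRCm38), *Ces1b* to *Ces1g* from 93056728 to 93337308 and *Ces2a* to *Ces2g* from 104734003 to 104969537. *Ces2a* showed the largest difference between the genotypes of the 43 enzymes tested. Its levels were 68.8 and 81.3 CPM in untreated WT mice and 97.8 and 80.4 CPM in untreated null mice. The levels after AOM–DSS were 4.69 and 2.85 CPM for WT and 169 and 29.4 CPM for null animals. Untreated mice of both genotypes overlapped, the treated WT mice were lower than all other mice, and the treated null mice lay on either side of the untreated null mice. The log2 fold change in WT mice was -4.29 ± 0.71 (adjusted p = 0.0111), the change in null mice 0.15 ± 0.59 (adjusted p = 0.886), and the difference at day 15 4.70 ± 0.71 (adjusted p = 0.0183), or 25.96-fold. The difference at day 15 was called in 5 of 8 fits with 1 library left out. It went down to 2.95 without replicate 1 of null day 15 and up to 5.47 without replicate 2 of that group. The interaction was 4.44 ± 0.91 with an adjusted p of 0.272 in edgeR.

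The neighbouring *Ces2* genes did not all share this pattern. *Ces2c*, an acylglycerol hydrolase of the intestine, was at 68.1 and 92.4 CPM in untreated WT mice and 55.1 and 123 CPM in untreated null mice. In treated mice the values were 8.09 and 7.18 CPM (WT) and 24.03 and 7.48 CPM (null). It fell in WT mice (-3.38 ± 0.55, adjusted p = 0.011) and also in null mice (-2.49 ± 0.53, adjusted p = 0.0218), and the treated genotypes overlapped. *Ces2b* was at 3.72 and 3.57 CPM in untreated WT mice and 2.46 and 6.11 CPM in untreated null mice. With treatment, WT mice showed 0.0869 and 0.106 CPM and null mice 2.64 and 0.668 CPM. In the treated WT mice this was 1 count each. Its level in untreated WT mice was 38.7 times that in treated WT mice (95% interval 10.1 to 329 from the counts alone), and it was called lower in WT mice only (adjusted p = 0.0211), but not in any fit that left out a WT mouse, nor with counts thinned to the smallest library. *Ces2e* was at 70.04 and 72.6 CPM in untreated WT mice and 59.6 and 62.9 CPM in untreated null mice. On day 15 it measured 39.9 and 22.8 CPM for WT and 119 and 49.7 CPM for null animals. *Ces2g* was at 36.7 and 48.4 CPM in untreated WT mice and 49.5 and 40.6 CPM in untreated null mice. Treated WT mice were at 16.8 and 3.27 CPM and treated null mice at 28.5 and 19.8 CPM. Neither was called, and the smallest adjusted p was 0.0768 for *Ces2e* (genotypes at day 15) and 0.0574 for *Ces2g* (WT mice over time). Part of these transcripts is shared: 17.3% of the 50-base stretches of *Ces2a*, 36.1% of *Ces2c* and 76.9% of *Ces2d-ps* also occur in another gene, so that some counts may be divided between them.

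Of the *Ces1* genes, *Ces1e* and *Ces1d* were called. *Ces1e* was at 6.56 and 4.76 CPM in untreated WT mice and 11.1 and 10.1 CPM in untreated null mice. After treatment WT mice had 0.869 and 0.422 CPM and null mice 4.81 and 5.08 CPM. It fell in WT mice by 3.11 (SE 0.54, adjusted p = 0.0129), had a log2 fold change of -1.10 ± 0.46 in null mice (adjusted p = 0.133), and was higher in null mice at day 15 by 2.88 (SE 0.54, adjusted p = 0.0274), a call not made with pan-epithelial scaling (2.42) or with thinned counts. Null mice were above WT mice also at day 0. *Ces1d*, a triacylglycerol hydrolase, was at 10.3 and 7.94 CPM in untreated WT mice and 13.2 and 21.2 CPM in untreated null mice. At day 15 the WT mice stood at 3.48 and 1.58 CPM and the null mice at 3.10 and 3.21 CPM. It fell in null mice by 2.42 (SE 0.51, adjusted p = 0.0211), had a log2 fold change of -1.85 ± 0.50 in WT mice that missed the threshold (adjusted p = 0.0501), and showed overlapping genotypes at day 15. *Ces1g* was low before treatment. Its levels were 3.13 and 0 CPM in untreated WT mice and 1.72 and 1.80 CPM in untreated null mice. The levels after AOM–DSS were 11.2 and 3.91 CPM for WT and 2.33 and 2.94 CPM for null animals. Both treated WT mice were above all other mice, without a call (adjusted p = 0.182 in WT mice over time).

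**Figure D4:**
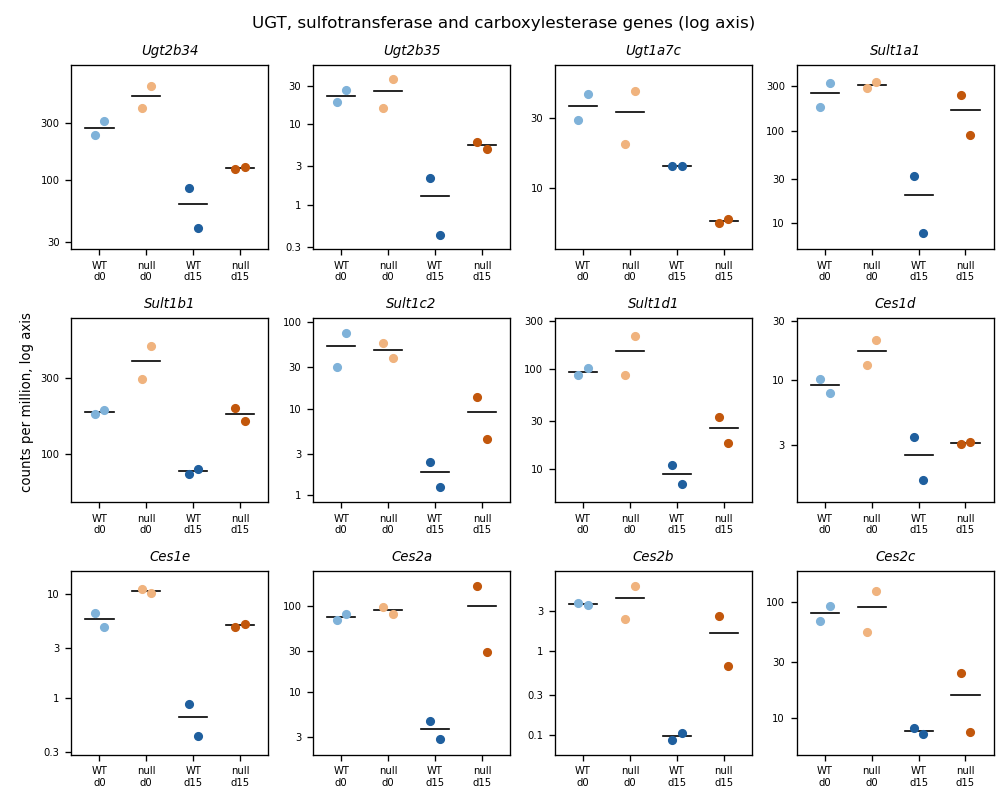
CPM on log axes, set separately for each gene, of the 12 UGT, SULT and CES genes called in at least 1 comparison, with points for mice and black lines for means of 2 mice. *Ces2a*, *Ces1e* and *Sult1a1* are low in the 2 treated WT mice, whereas *Ugt2b34*, *Ugt2b35*, *Sult1b1*, *Sult1c2*, *Sult1d1* and *Ces2c* fell in both genotypes.

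The 7 *Gstm* genes lie side by side on chromosome 3 (GRCm38 107895821 to 108044894). In all 7, both treated WT mice were below both untreated WT mice, as in 31.5% of all tested genes. In all 7, both treated null mice were above both treated WT mice, as in 26.2%. One of the 7, *Gstm6*, was called lower in WT mice, and 3, *Gstm1*, *Gstm6* and *Gstm7*, were called higher in null mice at day 15, against 4.27% and 1.91% of all tested genes. Summed over the 7 genes, WT mice went from 640.3 and 992 CPM to 489.5 and 336 CPM, or 50.6% of the day 0 mean. Null mice went from 928 and 688 CPM to 1198 and 1007 CPM, or 136%. The direction in null mice depended on the scale: 6 of 7 log2 fold changes over time were positive with TMM and 3 of 7 with pan-epithelial scaling, and the medians were 0.51 and -0.02. The difference between the genotypes at day 15 was positive in 7 of 7 on both scales, with medians of 1.89 and 1.41. The change in WT mice was negative in 7 of 7 on both scales, with medians of -1.24 and -1.31.

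*Gstm6* was the one gene of the cluster called in all 3 comparisons with treated mice. Its levels were 20.3 and 26.6 CPM in untreated WT mice and 20.5 and 14.4 CPM in untreated null mice. In treated mice the values were 9.39 and 7.71 CPM (WT) and 45.6 and 34.2 CPM (null). It fell in WT mice (-1.44 ± 0.33, adjusted p = 0.0311), a call lost with pan-epithelial scaling (-1.50), thinned counts or only the WT mice in the fit and in each fit without a WT mouse. In null mice it rose on the TMM scale (1.17 ± 0.32, adjusted p = 0.0425) but was not past the threshold with pan-epithelial scaling (0.65) or in 7 of 8 fits with 1 library left out. It was 4.65-fold higher in null than in WT mice at day 15 (2.22 ± 0.33, adjusted p = 0.0167). With 1 library left out this log2 difference lay between 2.01 and 2.41, and its call was not always kept. With only the day 15 mice in the fit it was not called. *Gstm1*, per kilobase the most abundant GST in null mice at day 15 (420.3 CPM per kilobase), was at 303 and 525 CPM in untreated WT mice and 505 and 347 CPM in untreated null mice. With treatment, WT mice showed 218 and 117 CPM and null mice 684 and 554 CPM. It was 3.70-fold higher in null mice at day 15 (1.89 ± 0.39, adjusted p = 0.0357), with a log2 fold change over time of -1.30 ± 0.38 (adjusted p = 0.0629) in WT mice and 0.54 ± 0.38 (adjusted p = 0.353) in null mice. The *Gstm1* difference at day 15 lay between 1.51 and 2.41 (log2) with 1 library left out. Its call, too, was not always kept there and was lost with only the day 15 mice in the fit. *Gstm7* was at 11.4 and 14.7 CPM in untreated WT mice and 11.8 and 5.39 CPM in untreated null mice. On day 15 it measured 6.43 and 4.12 CPM for WT and 28.4 and 18.04 CPM for null animals. It was 4.37-fold higher in null mice at day 15 (2.13 ± 0.46, adjusted p = 0.0428), a call kept in 1 of 8 fits with 1 library left out and lost with pan-epithelial scaling (1.63). The mu-class transcripts are partly alike, with 18.9% of the 50-base stretches of *Gstm1*, 28.8% of *Gstm3* and 5.97% of *Gstm6* found in another gene. *Gstm4* and *Gstm5*, in which no 50-base stretch is shared, were at 14.1 and 13.6 CPM and 42.3 and 33.7 CPM in treated WT mice and at 33.9 and 21.2 CPM and 54.3 and 52.7 CPM in treated null mice.

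**Figure D5:**
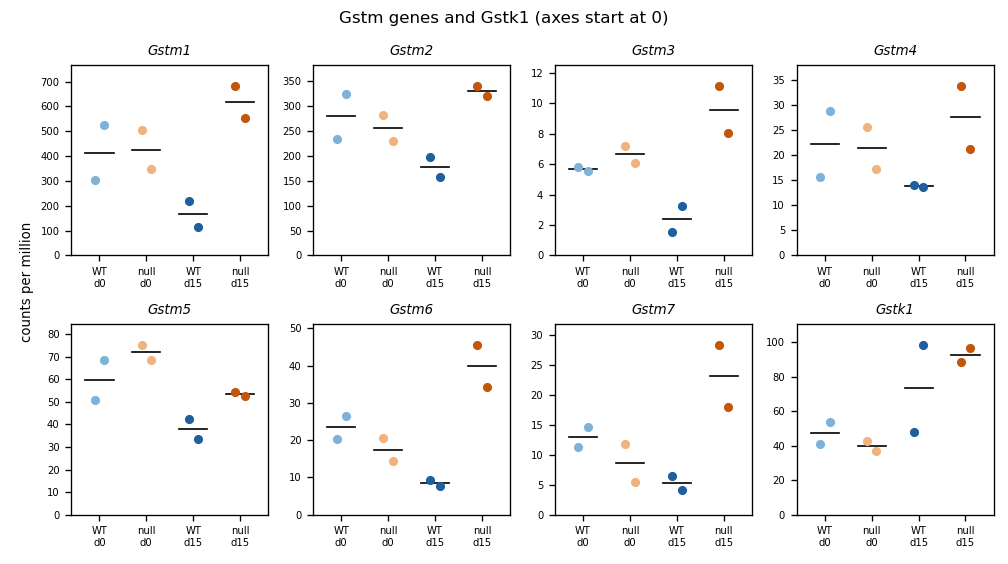
CPM of the 7 *Gstm* genes and of *Gstk1* in each mouse, with points for mice, black lines for means of 2 mice and axes from 0. In every *Gstm* panel the 2 treated WT mice are the lowest of the WT mice and lie below the 2 treated null mice, as for *Gstm6* at 9.39 and 7.71 CPM against 45.6 and 34.2 CPM.

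Of the 12 GSTs outside the mu class, 1 was called, higher in null mice over time, where 5.30% of all tested genes were. *Gsto1*, which reduces dehydroascorbate and mixed disulfides, was at 489 and 463 CPM in untreated WT mice and 603 and 426 CPM in untreated null mice. Treated WT mice were at 581 and 568 CPM and treated null mice at 497 and 598 CPM. *Gstp1*, the pi-class enzyme, was at 238 and 366 CPM in untreated WT mice and 291 and 242 CPM in untreated null mice. After treatment WT mice had 357 and 232 CPM and null mice 262 and 309 CPM. Neither was called, and their log2 fold changes over time lay between -0.03 and 0.27. *Gsta4*, which conjugates the lipid peroxidation product 4-hydroxynonenal, was at 89.9 and 93.2 CPM in untreated WT mice and 188 and 130.0 CPM in untreated null mice. At day 15 the WT mice stood at 180.0 and 169 CPM and the null mice at 126 and 193 CPM. Both treated WT mice were above both untreated WT mice without a call (0.93 ± 0.28, adjusted p = 0.0669). *Gstk1*, the kappa-class enzyme of mitochondria and peroxisomes, was the one called. Its levels were 40.9 and 53.6 CPM in untreated WT mice and 42.7 and 36.6 CPM in untreated null mice. The levels after AOM–DSS were 48.1 and 98.5 CPM for WT and 88.4 and 96.4 CPM for null animals. The gene rose in null mice by 1.21 (SE 0.34, adjusted p = 0.043) on the TMM scale but not past the threshold with pan-epithelial scaling (0.69). With 1 library left out the log2 fold change lay between 1.11 and 1.33, and the call was lost in most of these fits. *Gstt1*, the highest theta-class gene per kilobase over all mice, was at 41.1 and 44.4 CPM in untreated WT mice and 49.98 and 68.2 CPM in untreated null mice. In treated mice the values were 27.4 and 21.1 CPM (WT) and 32.6 and 33.1 CPM (null). *Gstz1*, the maleylacetoacetate isomerase of tyrosine breakdown, was at 59.3 and 63.9 CPM in untreated WT mice and 60.6 and 59.98 CPM in untreated null mice. With treatment, WT mice showed 47.5 and 31.9 CPM and null mice 47.3 and 63.9 CPM. Neither was called, and the treated mice were below the untreated mice in both genotypes for *Gstt1* (-0.82 in WT and -0.84 in null mice, adjusted p = 0.0857 and 0.0635). The 9 tested genes of the 4 classes not described above (*Ces1c*, *Ces1f*, *Ces2f*, *Gsta1*, *Gsta3*, *Gsto2*, *Gstp2*, *Gstt2* and *Gstt3*) were not called in any comparison on the TMM scale. All but *Gstt3* were at 67.8 CPM or less in every mouse, and 90.5% of the 50-base stretches of *Gsta1* occur in another gene.

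The promoters of 5 of the 7 genes that were higher in null mice at day 15 are shown, so that the 3 of the *Gstm* cluster can be set beside each other and beside *Sult1a1* and *Ces2a*. Each sequence holds the 250 bases before the transcription start, 5′ to 3′ in the direction of transcription, from RefSeq on GRCm38.p6. The positions are chr3:108017974-108018223 for *Gstm1*, chr3:107943735-107943984 for *Gstm6*, chr3:107931818-107932067 for *Gstm7* and chr7:126676419-126676668 for *Sult1a1*, all on the minus strand, and chr8:104733753-104734002 on the plus strand for *Ces2a*. *Gstm1* and *Gstm7* have 2 listed starts each and *Gstm6* has 3, of which the first that falls in a GENCODE transcript was taken. Capitals mark the heptamer CCCGCCT on either strand, which was chosen after the *Gstm* sequences had been read.
Gstm1: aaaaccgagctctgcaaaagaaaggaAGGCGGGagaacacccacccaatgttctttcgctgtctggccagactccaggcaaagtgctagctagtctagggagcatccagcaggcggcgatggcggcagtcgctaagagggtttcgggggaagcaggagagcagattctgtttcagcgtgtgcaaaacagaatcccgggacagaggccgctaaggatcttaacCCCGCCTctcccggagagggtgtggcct
Gstm6: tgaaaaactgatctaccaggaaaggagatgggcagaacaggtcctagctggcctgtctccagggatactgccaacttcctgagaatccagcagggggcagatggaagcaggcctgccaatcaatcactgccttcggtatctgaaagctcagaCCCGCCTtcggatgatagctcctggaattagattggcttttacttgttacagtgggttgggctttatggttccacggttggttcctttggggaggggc
Gstm7: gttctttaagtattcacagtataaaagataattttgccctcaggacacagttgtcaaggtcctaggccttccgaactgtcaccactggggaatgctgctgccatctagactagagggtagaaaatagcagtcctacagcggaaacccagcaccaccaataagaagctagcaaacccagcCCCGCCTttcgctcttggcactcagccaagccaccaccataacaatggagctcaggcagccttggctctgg
Sult1a1: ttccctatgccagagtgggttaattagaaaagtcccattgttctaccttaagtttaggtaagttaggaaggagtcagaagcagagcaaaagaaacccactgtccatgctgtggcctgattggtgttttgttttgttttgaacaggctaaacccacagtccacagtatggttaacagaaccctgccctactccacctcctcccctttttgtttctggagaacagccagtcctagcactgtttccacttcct
Ces2a: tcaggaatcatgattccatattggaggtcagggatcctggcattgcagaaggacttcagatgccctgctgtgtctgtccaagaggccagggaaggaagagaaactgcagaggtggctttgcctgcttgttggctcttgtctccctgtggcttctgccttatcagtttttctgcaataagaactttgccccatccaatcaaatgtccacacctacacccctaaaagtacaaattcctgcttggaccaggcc

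Promoter sequences of 300 bases, from 250 before to 50 after the start, were listed for 42 of the 50 genes. The heptamer was present in 5 of the 7 *Gstm* promoters, in 10 of the 42 and in 11.8% of 32851 listed mouse promoters of that length. Motifs of 4 factors that act on stress or drug-metabolizing genes were searched on both strands. They were spelled GAANNTTC for the heat shock element, TGACNNNGC for the antioxidant response element, TNGCGTG for the xenobiotic response element and CAAAGTCCA for an HNF4A element. None of these letter strings occurred in the 300 bases of the 7 genes called between the genotypes at day 15. In the 42 promoters they occurred in 3, 2, 2 and 0, beside 7.86%, 12.4%, 5.07% and 0.475% of all listed promoters. The antioxidant response element string was found in *Gsta3* and *Gstm5*, and the heat shock element string in *Ces1g*, *Ces2c* and *Ugt2b5*. A match or its absence in this window describes the letters alone.

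Genes that supply the conjugation reactions, export their products or regulate these enzymes were taken from fixed lists of 82 genes, 74 of which were tested. Of the 74, 10 fell in WT mice, 12 fell and 2 rose in null mice, and 6 were higher in null than in WT mice at day 15, beside 4.27%, 6.48%, 5.30% and 1.91% of all tested genes. Their median log2 difference at day 15 was 0.16, beside 1.00 for the 43 enzymes. For glucuronidation, *Ugdh*, which makes UDP-glucuronate, was at 146 and 183 CPM in untreated WT mice and 210.4 and 341 CPM in untreated null mice. On day 15 it measured 49.9 and 45.6 CPM for WT and 86.2 and 74.4 CPM for null animals. Like *Ugt2b34* it fell in WT (-1.78, adjusted p = 0.0103) and in null mice (-1.78, adjusted p = 0.0134). For sulfation, the sulfate transporter *Slc26a2* was at 802 and 899 CPM in untreated WT mice and 694 and 931 CPM in untreated null mice. Treated WT mice were at 110.1 and 87.5 CPM and treated null mice at 670.5 and 249 CPM. It fell in WT mice (-3.11, adjusted p = 0.0076) and was higher in null mice at day 15 (2.22, adjusted p = 0.031), the same calls as *Sult1a1*. The PAPS transporter *Slc35b3* was higher in null mice at day 15 (1.26, adjusted p = 0.0274), and the PAP phosphatase *Impad1* fell in null mice (-2.17, adjusted p = 0.0153).

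Of the 10 genes of glutathione supply, 3 were called, all in null mice over time, 2 lower and 1 higher, beside 6.48% and 5.30% of all tested genes. There the 2 subunits of glutamate-cysteine ligase, *Gclc* and *Gclm*, fell (-1.04, adjusted p = 0.0429, and -1.09, adjusted p = 0.0388) and *Ggt1*, which breaks glutathione down at the cell surface, rose (1.90, adjusted p = 0.0478). *Nfe2l2*, which encodes the factor NRF2 that drives many GST and glutathione genes, was at 110.0 and 154 CPM in untreated WT mice and 115 and 269 CPM in untreated null mice. After treatment WT mice had 52.8 and 89.3 CPM and null mice 36.4 and 51.3 CPM. It fell in null mice (-2.12, adjusted p = 0.0199). *Mgst1*, a membrane-bound glutathione transferase outside the cytosolic families, was at 123 and 139 CPM in untreated WT mice and 137 and 203 CPM in untreated null mice. At day 15 the WT mice stood at 35.5 and 37.6 CPM and the null mice at 54.6 and 54.3 CPM. It fell in both genotypes (-1.84 and -1.64, adjusted p = 0.00655 and 0.013).

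Among other hydrolases, the esterases *Bche* and *Aadac* fell in both genotypes, with log2 fold changes of -3.36 and -2.81 in WT and -2.81 and -2.43 in null mice (largest adjusted p = 0.0373), and *Ephx2* and *Pon3* fell in null mice (-1.20 and -1.12, adjusted p = 0.0487 and 0.0316). The efflux pump gene *Abcb1a* was at 290.2 and 371 CPM in untreated WT mice and 402 and 445 CPM in untreated null mice. The levels after AOM–DSS were 25.4 and 31.5 CPM for WT and 190.1 and 97.96 CPM for null animals. It fell in both genotypes (-3.54 and -1.56, adjusted p = 0.00296 and 0.0211) and was higher in null mice at day 15 (2.34, adjusted p = 0.015), and *Abcg2* was higher in null mice at day 15 (1.19, adjusted p = 0.0374). Of the 20 receptors and sensors, the vitamin D receptor gene *Vdr* was at 457 and 569.8 CPM in untreated WT mice and 772 and 545 CPM in untreated null mice. In treated mice the values were 106 and 65.3 CPM (WT) and 657 and 297 CPM (null). *Vdr* and *Ppara* fell in WT mice (-2.58 and -2.50, adjusted p = 0.0111 and 0.0302) and were higher in null mice at day 15 (2.47 and 2.57, adjusted p = 0.0226 and 0.0442). *Ahr*, the receptor for dioxins and dietary indoles, fell in both genotypes (-1.14 and -1.22, adjusted p = 0.0478 and 0.032), *Ppargc1a* fell in WT mice (-3.16, adjusted p = 0.0165) and *Cdx2* rose in null mice (1.22, adjusted p = 0.0325). The calls at day 15 among these genes went to 0 without replicate 2 of WT day 15, replicate 1 of null day 15 or either null day 0 mouse, and to 3 with pan-epithelial scaling.

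Markers of the cell types in the tissue moved between the same groups. The 12 differentiated colonocyte markers summed to 3601 and 6333 CPM in untreated WT and 9479 and 9267 CPM in untreated null mice. With treatment the sums were 1395 and 3136 CPM (WT) and 7739.7 and 3715 CPM (null), with 2 of 12 called lower in WT mice and 2 higher in null than in WT mice at day 15. The 8 goblet cell markers summed to 8205 and 10093 CPM in treated WT mice and 40600.1 and 21277 CPM in treated null mice. Untreated mice had 19614 and 28440.2 CPM (WT) and 27989 and 23508 CPM (null), with 3 of 8 called lower in WT mice and 3 of 8 higher in null mice at day 15. Over time in null mice 2 of the 12 colonocyte markers were called lower and 1 higher. The 15 pan-epithelial genes summed to 11977 and 17476 CPM in untreated WT and 19558 and 13023 CPM in untreated null mice, and to 17376 and 17915 CPM (WT) and 26986 and 23027 CPM (null) with treatment. Of these 15, 13 were higher in null than in WT mice at day 15, with 1 called. Of the other lists, the 6 smooth muscle markers were lowest in treated WT mice (3459.7 and 2024 CPM, beside 6894 and 9450.0 CPM at day 0 and 5009.9 and 5814 CPM in treated null mice), with 5 of 6 called lower in WT mice. The 8 myeloid markers summed to 287 and 862 CPM in treated WT mice and to at most 188 CPM in every other mouse. All 8 were lower in null than in WT mice at day 15, with 2 called, and 2 were called higher in WT mice over time. *S100a8*, a neutrophil marker among them, was at 0 in 2 of the null mice. The 8 fibroblast markers were lower in null than in WT mice at day 15 in 8 of 8, with none called (477 and 1476 CPM against 2437 and 2487 CPM), and so were the 3 endothelial markers (45.6 and 96.1 CPM against 197 and 188 CPM), with 1 called, and the 4 lymphoid markers (124 and 154 CPM against 279 and 622 CPM), with none called. The 2 pancreas genes found stood at 21.1% of day 0 in WT and 81.04% in null mice. The 7 crypt base and cycling markers stood at 131% and 129%, and the 4 enteric glia and neuron markers at 81.1% and 63.9%. The 9 hindgut *Hox* genes summed to 579.6 and 843 CPM in untreated WT and 772 and 734 CPM in untreated null mice, and to 443 and 167 CPM (WT) and 541 and 301 CPM (null) with treatment. They stood at 42.9% of day 0 in WT and 55.9% in null mice, with 4 of 9 called lower in WT mice, 1 lower in null mice and 1 higher in null than in WT mice at day 15. The 4 liver genes stood at 29.2% and 44.8% of day 0. The part that these cell type and position markers have in the values of the conjugation enzymes was not tested.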

How the data were processed

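Poly(A) RNA of snap-frozen distal colon was sequenced with a strand-specific library kit. The authors aligned reads to mm10 with STAR and deposited raw counts per gene symbol. The counting program, its annotation and its strand setting are not given in the sources used here. A second deposited table holds a score per gene and mouse, made by the authors by dividing counts by DESeq2 size factors, which served only to check normalization and summed levels. Groups and replicate numbers come from the labels. The paper and the sample names place treated mice at day 15, while the labels' protocol ends directly after DSS.

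Counts were fitted in R 4.3.3 with edgeR 4.0.16 (glmQLFit and glmQLFTest) on TMM library sizes, in 1 model of the 4 groups over all 8 mice. Genes whose mean count after DESeq2 normalization exceeded 5 were tested (14371). Benjamini-Hochberg adjustment of two-sided p-values ran over all of them in each comparison. With 2 mice per group the p-values rest on a spread shared across genes (prior degrees of freedom 5.97). SE is the log2 fold change divided by the root of the F statistic, and count-ratio intervals (95%) cover counting error only. Alternatives were DESeq2 1.42.0, its size factors within edgeR, other filters on low counts (none, filterByExpr), the replicate number as a block, only the groups compared, thinned counts, scaling to pan-epithelial genes and leaving out each library. Fits were also run on simulated counts with changes set only in treated null mice, and nothing reported here rests on them.

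Positions, exon lengths and shared 50-base stretches come from GENCODE M21 (GRCm38), in which 15250 of 15859 symbols were found directly and 459 through an older symbol. Named genes are every member called in a comparison and the highest tested member per kilobase of each family. *Ugt1a1*, *Gstm2* to *Gstm5*, *Gstt3*, *Ces1g*, *Ces2e*, *Ces2g*, *Sult1e1*, the uncalled genes listed together, single marker genes and the heptamer were picked after values were seen. The members, lists and alternatives were chosen with earlier results of these data known.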

Additional observations from a re-analysis of the deposited data

Results flagged for a closer look

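In 6 genes the 2 genotypes moved in opposite directions without overlap: both treated WT mice were below both untreated WT mice, and both treated null mice above both untreated null mice. This pattern was found in 2.04% of all tested genes. The difference between the 2 log2 fold changes was 2.64 for *Gstm7*, 2.61 for *Gstm6*, 1.84 for *Gstm1*, 1.75 for *Gstm3*, 1.01 for *Gstm2* and 0.91 for *Gstt3*. The interaction test of edgeR called none of them (adjusted p from 0.21 for *Gstm6* to 0.537 for *Gstm3*), and DESeq2 called *Gstm6* and *Gstm7*. With pan-epithelial scaling the log2 fold change in null mice turned negative for *Gstm2* (-0.17), *Gstm3* (-0.02) and *Gstt3* (-0.29).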

How the results depend on the processing

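Of the 43 genes, the number called between the genotypes at day 15 (7) was 14 with DESeq2, 4 with pan-epithelial scaling and 0 with only the day 15 mice in the fit, and 0 to 10 with 1 library left out. With 1 library left out, 1 to 13 genes were called in WT mice over time (11 with all libraries), 0 to 10 in null mice over time (10) and 0 to 1 in the interaction (0), for which DESeq2 called 3. Among the 74 related genes the number at day 15 (6) was 12 with DESeq2, 3 with pan-epithelial scaling, 0 with only the day 15 mice and 0 to 10 with 1 library left out. Their number was 3 to 13 in WT mice (10 with all libraries), 0 to 13 in null mice (14) and 0 to 2 in the interaction (0), for which DESeq2 called 3. The cause of these differences was not tested, and shares of all tested genes called with 1 library left out are not given here. All other settings gave counts within 1.5 times the values reported. At day 0 every setting that kept all libraries gave 0, where the main fit did not call *Hsf1* either.

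With the replicate number as a block, 6 of the 7 member calls at day 15, 11 of 11 in WT mice and 9 of 10 in null mice were made again. In the interaction 0 members were called. Related genes numbered 5, 10, 13 and 0 in the same order, beside 6, 10, 14 and 0 in the main fit. The share of all tested genes called under the block is not given here. Same-numbered mice are different animals, and their deviations from the group means correlated between -0.30 and 0.20 over the 6 pairs of groups, so that the numbers do not pair the mice.

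The 28 calls kept their direction under every alternative. They were made again 332 times and missed 116 times, and 1 of them, *Sult1c2* in WT mice, was made under all 16 alternatives. Depth limits the genes with few counts, such as *Ces2b*, with 1 count in each treated WT mouse, and the smallest library held 2553348 counts.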
